A study of Mus musculus with 2 samples.

Results

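The transforming growth factor beta (TGF-β) ligands, receptors and latent binding proteins were followed across the stroma of the mouse mammary gland as 10 genes chosen by symbol: the ligands *Tgfb1*, *Tgfb2* and *Tgfb3*, the receptors *Tgfbr1*, *Tgfbr2* and *Tgfbr3*, and the latent TGF-β binding proteins *Ltbp1*, *Ltbp2*, *Ltbp3* and *Ltbp4*. Each symbol named 1 of the 33696 genes listed in both single-cell RNA sequencing (scRNA-seq) libraries. The first library came from puberty (4 weeks of age) and the other from virgin adults (9 weeks). Both were wildtype C57BL/6 females, untreated as far as the labels say, with 2 females per condition, and the cells were sorted as stroma negative for lineage markers and for CD24. Whether a library pooled both females was not given in the sources used here, and a gate on 1 or a few transcripts stands in for a cell type throughout. With 1 library per stage there was no spread between animals to set a difference against, so no test was made. Intervals are 95% intervals for counting error alone.

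TGF-β is secreted as a dimer wrapped in its own propeptide, which holds it inactive. Inside the cell a latent TGF-β binding protein is bonded to that propeptide, and outside the cell it ties the complex to fibrillin and fibronectin fibers until integrins, proteases or other factors release the ligand. Released ligand binds the type II receptor (*Tgfbr2*), which phosphorylates the type I receptor (*Tgfbr1*), while the type III receptor betaglycan (*Tgfbr3*) presents ligand, above all TGF-β2. In the mammary gland TGF-β is known as a restraint on ductal growth and as a driver of matrix production by fibroblasts.

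The ligands differ in a stretch of the propeptide that bears on their release, so those coding stretches are shown, read from the GENCODE vM21 transcripts (GRCm38, the assembly also called mm10). Capitals mark the codons for arginine, glycine and aspartate (RGD), the motif that αv integrins bind. *Tgfb1* and *Tgfb3* each hold it once in the propeptide, and none was found in the propeptide of *Tgfb2*.
Tgfb1, RGD codons 244 to 246: cccaaacgtCGGGGCGACctgggcaccatc
Tgfb3, RGD codons 261 to 263: gaccatggcCGTGGAGACctggggcgtctc

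In the next 3 stretches capitals mark the codons of the cleavage site after which proprotein convertases such as furin cut, with arginine at its first and last position. All 3 genes hold it directly before the first codon of the mature ligand.
Tgfb1, codons 275 to 278: cacagctcaCGGCACCGGAGAgccctggat
Tgfb2, codons 299 to 302: tccagccggCGGAAGAAGCGCgctttggat
Tgfb3, codons 297 to 300: ggcagtcagAGGAAGAAGAGGgccctggac

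These stretches lie in coding exon 5 of 7 of each gene. The RGD stretches are at chr7:25697133-25697162 (plus strand) and chr12:86062153-86062182 (minus strand), and the cleavage sites at chr7:25697226-25697255 (plus), chr1:186630627-186630656 (minus) and chr12:86062045-86062074 (minus). Over the 336 coding bases of the mature ligand, *Tgfb1* and *Tgfb2* shared 68.8% of bases, *Tgfb1* and *Tgfb3* 73.5%, and *Tgfb2* and *Tgfb3* 70.8%. In the same annotation *Tgfb3* overlaps *Ttll5* and *Ltbp2* overlaps D030025P21Rik, each on the opposite strand.

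The libraries held 255274670 unique molecular identifiers (UMIs, each a counted transcript end) in 21688 barcodes at puberty and 259549498 UMIs in 23183 barcodes in the adult, and shared 145 barcode sequences. With at least 500 genes and at most 10% mitochondrial UMIs, 21534 and 22972 cells were kept. A Pdgfra+ cell had at least 1 *Pdgfra* UMI, and there were 18878 such cells at puberty and 20999 in the adult, with medians of 12187 and 11265 UMIs. All 5 fibroblast markers were present in their sums, whereas the 5 immune markers came to 2.02 and 1.80 CPM (UMIs of a gene per 1000000 UMIs of the set) together. A mural cell, from the wall of blood vessels, had no *Pdgfra* UMI and at least 1 UMI of *Myh11* or *Rgs5*. There were 783 and 457, with medians of 6334 and 6126 UMIs. Their smooth muscle markers summed to 20760 and 16542 CPM, and their pericyte markers to 1222 and 2704 CPM, so the balance of these lists differed between the stages. Skeletal muscle markers stood at 373 and 438 CPM and endothelial markers at 75.1 and 105 CPM. The adult mural gate also held epithelial markers at 610 CPM (34.9 CPM at puberty), and 29 adult and 6 pubertal mural cells carried at least 3 UMIs of *Epcam*, *Krt8*, *Krt18*, *Krt14* and *Krt5*. *Dcn*, a fibroblast gene, stood at 883 and 521 CPM in mural cells, 0.113 and 0.0465 of its level in Pdgfra+ cells, and its part in the mural values was not tested.

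Pdgfra+ cells were read in 5 gates that overlap. Cells with *Pi16* and *Dpp4*, described as progenitor-like fibroblasts, numbered 13983 at puberty (74.1% of Pdgfra+ cells) and 8853 in the adult (42.2%). *Gdf10* or *Fmo2* marked 7462 and 10066 cells, *Thbs4* or *Bmp5* 927 and 3117, at least 2 UMIs of *Fabp4* 1779 and 2553, and *Crabp1* 289 and 2672. A further 706 and 2507 Pdgfra+ cells were in no gate. The gates share cells, and the *Gdf10* or *Fmo2* gate shared 4168 pubertal cells with the Pi16+Dpp4+ gate, 55.9% of the former and 29.8% of the latter. *Myh11* or *Rgs5* UMIs were found in 14.2% of pubertal and 5.25% of adult cells of the *Fabp4* gate, against 4.03% and 2.55% of all Pdgfra+ cells.

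Among the ligands, *Tgfb2* was the most counted in Pdgfra+ cells and *Tgfb3* in mural cells. UMIs of these libraries come from the 3′ end, so that a count does not grow with transcript length, although capture can still differ between genes. In pubertal Pdgfra+ cells *Tgfb2* made up 71.7% of the 25159 ligand UMIs (71.2 to 72.3), *Tgfb3* 20.7% and *Tgfb1* 7.54%. In adult Pdgfra+ cells *Tgfb2* made up 58.1% of 23461 (57.5 to 58.7), *Tgfb3* 27.9% and *Tgfb1* 14.0%. In mural cells *Tgfb3* had the largest part, 46.9% of 1798 UMIs at puberty (44.6 to 49.3) and 44.4% of 628 in the adult (40.5 to 48.4). The part from *Tgfb1* and *Tgfb3*, the genes with RGD codons shown above, was 28.3% (27.7 to 28.8) and 41.9% (41.3 to 42.5) in Pdgfra+ cells and 63.8% (61.6 to 66.1) and 67.5% (63.7 to 71.2) in mural cells. It was lowest in the Pi16+Dpp4+ gate, at 22.4% and 29.1%, and among the Pdgfra+ gates highest in *Crabp1* cells, at 54.8% (49.8 to 59.8) and 69.9% (67.9 to 71.9), with the pubertal interval overlapping that of the *Thbs4* or *Bmp5* gate (51.6%). The 3 ligands together came to 106 and 94.8 CPM in Pdgfra+ cells and to 353 and 214 CPM in mural cells.

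**Figure D1:**
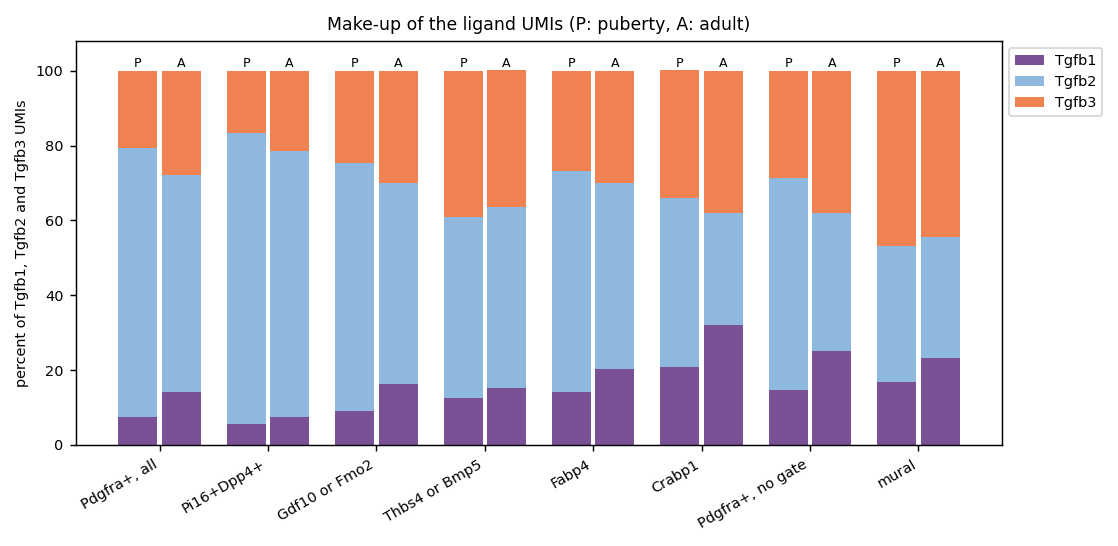
Share of the UMIs of *Tgfb1*, *Tgfb2* and *Tgfb3* (vertical axis, percent) held by each gene in all Pdgfra+ cells, in the gates within them, in Pdgfra+ cells of no gate and in mural cells, with puberty (P) and adult (A) side by side. *Tgfb2* takes 77.6% of the pubertal Pi16+Dpp4+ bar and 30.1% of the adult *Crabp1* bar, and *Tgfb3* is the largest part of both mural bars.

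*Tgfb1* stood at 8.01 CPM in pubertal (7.65 to 8.38) and 13.3 CPM in adult Pdgfra+ cells (12.8 to 13.7), and at 59.6 (53.1 to 66.7) and 49.4 CPM (41.7 to 58.1) in mural cells. The mural level was thus above that of every Pdgfra+ gate at both stages. Within Pdgfra+ cells the Pi16+Dpp4+ gate was lowest at both stages, at 6.14 and 8.37 CPM, and *Crabp1* cells were highest, at 19.1 and 20.4 CPM, although their intervals overlapped those of the cells in no gate (12.9 to 19.1 and 18.1 to 22.0 CPM).

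For *Tgfb2* the highest and the lowest gate were the other way round. It stood at 83.9 and 79.1 CPM in the Pi16+Dpp4+ gate, the highest of the Pdgfra+ gates, and at 41.8 and 19.3 CPM in *Crabp1* cells, the lowest, although at puberty the interval of the latter (35.8 to 48.4) overlapped that of the *Thbs4* or *Bmp5* gate (46.6 to 54.8). Over all Pdgfra+ cells it was 76.3 CPM at puberty (75.1 to 77.4) and 55.1 CPM in the adult (54.2 to 56.0). Mural cells held 127 CPM at puberty (118 to 138) and 69.5 CPM in the adult (60.3 to 79.7), and the adult mural interval overlapped that of the adult Pi16+Dpp4+ gate (77.5 to 80.7).

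*Tgfb3* stood at 22.0 (21.4 to 22.6) and 26.4 CPM (25.8 to 27.1) in Pdgfra+ cells and at 165 (155 to 177) and 95.1 CPM (84.2 to 107) in mural cells. Of the Pdgfra+ gates the *Thbs4* or *Bmp5* gate was highest at both stages, at 40.9 (37.4 to 44.8) and 38.4 CPM (36.5 to 40.4). The next values were 31.6 CPM in pubertal *Crabp1* cells, whose interval (26.5 to 37.4) met that of the *Thbs4* or *Bmp5* gate at its edge, and 30.4 CPM in adult cells of no gate (28.0 to 32.8), whose interval did not reach it.

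**Figure D2:**
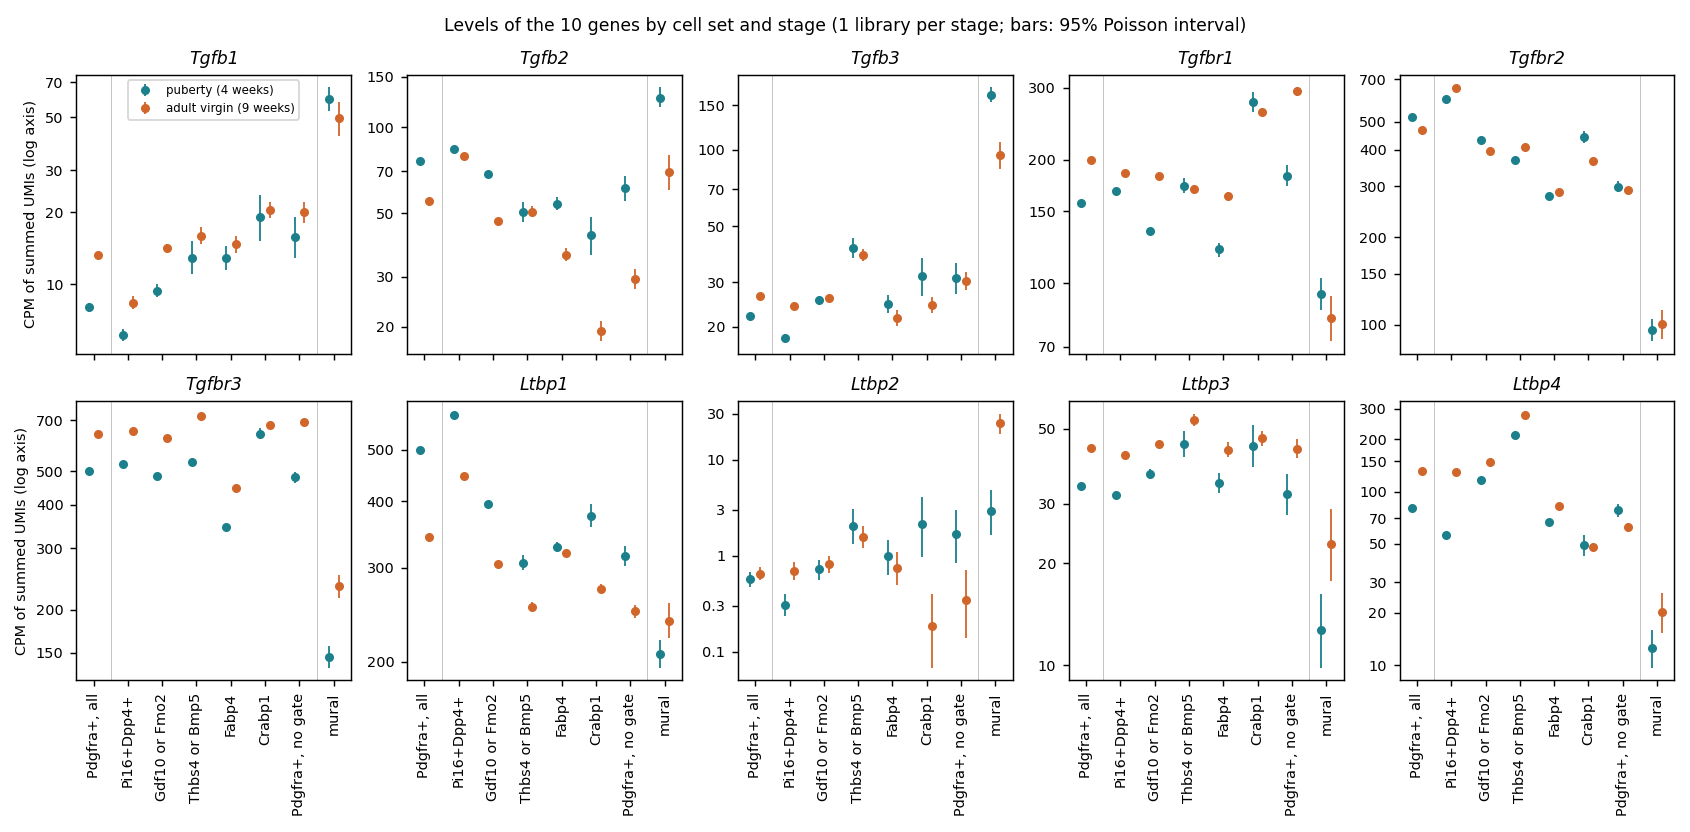
Level of each of the 10 genes (vertical log axis, CPM of UMIs summed over the cells of a set) in all Pdgfra+ cells, in each gate, in Pdgfra+ cells of no gate and in mural cells, at puberty and in the adult, with 95% Poisson intervals. *Tgfb1* and *Tgfb3* peak in the mural column, the 3 receptors and *Ltbp3* and *Ltbp4* are lowest there, and the Pi16+Dpp4+ column leads for *Tgfbr2* and *Ltbp1*.

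All 3 receptors stood lower in mural than in Pdgfra+ cells at both stages. *Tgfbr2* stood at 517 (514 to 520) and 467 CPM (464 to 470) in Pdgfra+ cells and at 96.3 (87.9 to 105) and 101 CPM (89.7 to 113) in mural cells. The Pi16+Dpp4+ gate was the highest set at both stages, with 599 CPM at puberty and 652 CPM in the adult, and the *Fabp4* gate the lowest of the Pdgfra+ gates, with 278 and 287 CPM.

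*Tgfbr1* stood at 157 (155 to 159) and 200 CPM (198 to 201) in Pdgfra+ cells and at 94.3 (86.1 to 103) and 82.1 CPM (72.1 to 93.2) in mural cells. *Crabp1* cells held 277 (262 to 293) and 262 CPM (257 to 268), the most of any gate, and adult Pdgfra+ cells of no gate held more still, 294 CPM (286 to 301).

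*Tgfbr3* was the most counted receptor in the adult, at 640 CPM in Pdgfra+ cells (637 to 643) after 500 CPM at puberty (497 to 503), and at 146 (136 to 157) and 233 CPM (216 to 251) in mural cells. Among the Pdgfra+ gates it ran from 345 CPM in the *Fabp4* gate to 642 CPM in *Crabp1* cells at puberty, and from 447 CPM in the *Fabp4* gate to 723 CPM in the *Thbs4* or *Bmp5* gate in the adult.

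Of the latent binding proteins, *Ltbp1* was the most counted in all Pdgfra+ cells and in mural cells, though in the adult *Thbs4* or *Bmp5* gate *Ltbp4* was above it (276 and 254 CPM). It stood at 499 (497 to 502) and 343 CPM (340 to 345) in Pdgfra+ cells and at 207 (195 to 220) and 239 CPM (222 to 258) in mural cells. The Pi16+Dpp4+ gate was highest at both stages, at 581 and 447 CPM, and the *Thbs4* or *Bmp5* gate lowest of the gates, at 307 and 254 CPM.

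*Ltbp4*, which is also tied to elastic fiber assembly, had another order. It stood at 80.9 (79.8 to 82.1) and 131 CPM (130 to 133) in Pdgfra+ cells and at 12.5 (9.66 to 16) and 20.1 CPM (15.3 to 25.9) in mural cells. The *Thbs4* or *Bmp5* gate led at both stages, with 213 (205 to 222) and 276 CPM (271 to 281), followed by the *Gdf10* or *Fmo2* gate with 116 and 148 CPM, and *Crabp1* cells were lowest with 49.1 and 48.2 CPM. In cells that passed 1 gate only, the 2 leading gates held 338 and 323 CPM (*Thbs4* or *Bmp5*) and 236 and 199 CPM (*Gdf10* or *Fmo2*), while Pi16+Dpp4+ cells held 46.5 and 88.0 CPM.

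*Ltbp3* stood at 33.8 (33.0 to 34.5) and 43.9 CPM (43.1 to 44.7) in Pdgfra+ cells and 12.7 (9.84 to 16.2) and 22.8 CPM (17.7 to 29.0) in mural cells. Its range over the Pdgfra+ gates was narrow, from 31.8 to 45.1 CPM at puberty and from 41.9 to 53.1 CPM in the adult, with the *Thbs4* or *Bmp5* gate first both times.

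*Ltbp2*, which binds fibrillin but is held not to bind latent TGF-β, was close to the limit of counting. It had 134 UMIs in pubertal and 160 in adult Pdgfra+ cells, or 0.566 and 0.646 CPM. In mural cells it had 15 UMIs (2.94 CPM) and 70 UMIs (23.9 CPM), but 62 of the adult and 7 of the pubertal UMIs were in the 29 and 6 mural cells that carried epithelial UMIs, and 8 UMIs were left at each stage without them.

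The first comparison asked which genes differed between the stages in Pdgfra+ cells. A gene counted as different at 1.5-fold, and 9 of the 10 reached 10 CPM in either library. *Tgfb1* was higher in the adult library by a ratio of 1.65 (1.56 to 1.75) and *Ltbp4* by 1.62 (1.59 to 1.65), and none was lower by that margin. That is 2 of 9, where 12.0% of 8645 genes were higher and 5.09% lower, so with so few genes the count is near that background. The other ratios ran from 0.686 for *Ltbp1* (0.680 to 0.692) and 0.722 for *Tgfb2* (0.706 to 0.739) through 0.903 for *Tgfbr2*, 1.2 for *Tgfb3* and 1.27 for *Tgfbr1* to 1.28 for *Tgfbr3* and 1.30 for *Ltbp3*. The median of the 9 was 0.35 on the log2 scale, beside 0.13 for all genes tested.

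Those counts turned on the scaling. With library sizes scaled by TMM, which takes the bulk of genes as equal and lowers each adult over puberty log2 ratio by 0.14, none of the 9 was higher and *Tgfb2* and *Ltbp1* were lower by 1.5-fold, while over all genes 7.91% were higher and 7.51% lower. They also changed when the gates were weighted, and whether the mix of cells is the cause was not tested. With the adult levels weighted to the pubertal share of each of the 28 gate combinations, none of the 9 passed 1.5-fold, the ratio of *Tgfb1* became 1.17, that of *Tgfb2* 0.959, that of *Ltbp1* 0.854 and that of *Ltbp4* 1.41, and *Tgfbr2* went from 0.903 to 1.15.

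Within gates the stage ratios were as follows. In Pi16+Dpp4+ cells *Ltbp4* was higher in the adult by 2.31 (2.25 to 2.36), and *Ltbp1* stood at 0.770 (0.762 to 0.778). In *Gdf10* or *Fmo2* cells *Tgfb1* was higher by 1.5 (1.39 to 1.63), or 0.59 on the log2 scale, which became 0.48 with TMM and 0.23 with cells thinned to 3000 UMIs. *Tgfb2* stood at 0.462 in *Crabp1* cells (0.390 to 0.549) and at 0.665 in *Fabp4* cells (0.616 to 0.717), but at 0.943 in Pi16+Dpp4+ cells (0.919 to 0.967) and 0.999 in *Thbs4* or *Bmp5* cells (0.911 to 1.10). In the *Thbs4* or *Bmp5* gate the log2 ratios of the 9 genes that reached 10 CPM ran from -0.27 to 0.44, with a median of 0.15 beside 0.09 for all genes.

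**Figure D3:**
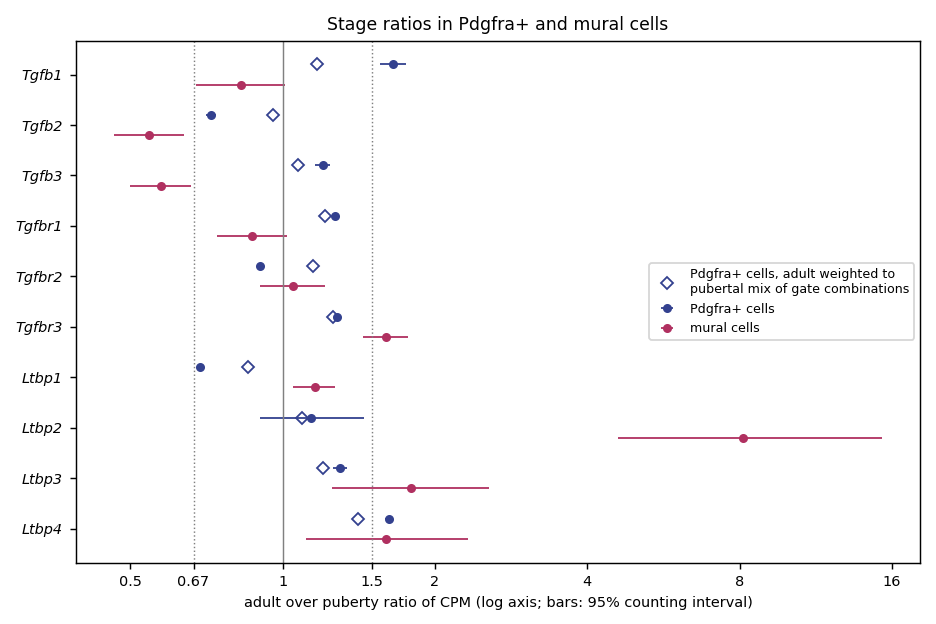
Adult over puberty ratio of CPM (horizontal log axis, 95% counting intervals) for each gene in Pdgfra+ cells (blue) and mural cells (red), with open diamonds for Pdgfra+ cells after weighting the adult to the pubertal mix of gate combinations. Dotted lines mark 1.5-fold either way. *Tgfb1* moves from 1.65 to 1.17 with the weighting, and *Tgfb3* and *Ltbp1* lie on opposite sides of 1 in the 2 cell types.

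The second comparison was the same one in mural cells, where all 10 genes reached 10 CPM in either library. *Tgfb2* (ratio 0.545, interval 0.464 to 0.639) and *Tgfb3* (0.575, 0.5 to 0.659) were lower in the adult library by 1.5-fold, where 6.17% of 9171 genes were. *Tgfbr3* (1.60, 1.44 to 1.77), *Ltbp2* (8.11, 4.60 to 15.3), *Ltbp3* (1.79, from 67 and 65 UMIs) and *Ltbp4* (1.60, 1.11 to 2.32) were higher, where 17.0% of genes were. Without the cells that carried epithelial UMIs, *Ltbp3* stood at 1.26 (0.819 to 1.91), *Tgfbr3* at 1.49 (1.33 to 1.67) and *Ltbp2* at 1.97 (0.644 to 6.01, at 1.58 and 3.11 CPM). *Ltbp4* stood at 1.03 (0.589 to 1.76) in mural cells with at least 5 UMIs of *Myh11* and *Rgs5*. With TMM, which lowers each log2 ratio here by 0.21, *Ltbp2* and *Ltbp3* were higher and both ligands lower, where 9.94% of genes were higher and 11.3% lower. The median of the 10 was 0.14 on the log2 scale, beside 0.15 for all genes tested.

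Both ligands that were lower in mural cells were also lower in each of the larger parts of the gate, the cells with *Myh11*. In cells with both *Myh11* and *Rgs5* the ratio of *Tgfb2* was 0.495 (0.364 to 0.666) and that of *Tgfb3* 0.556 (0.438 to 0.7). In cells with *Myh11* alone they were 0.642 (0.527 to 0.779) and 0.609 (0.508 to 0.725). In the 27 pubertal and 65 adult cells with *Rgs5* alone, *Tgfb3* was higher in the adult, with 1 UMI (6.16 CPM, 0.156 to 34.3) and 13 UMIs (49.1 CPM, 26.2 to 84), and *Tgfb2* was lower, with 17 UMIs (105 CPM) and 6 UMIs (22.7 CPM). Over the whole gate *Tgfb2* had 204 adult UMIs. With all cells thinned to 3000 UMIs and the gates drawn again on the thinned counts, its mural level was 114 CPM at puberty and 110 CPM in the adult. The cells of the gate changed with that step, so these values do not show the effect of depth alone. In mural cells as first gated and thinned to the same depth, *Tgfb2* was found in a smaller share of adult than of pubertal cells, as given below. *Tgfb3* stood at 163 and 75.9 CPM under the same thinning.

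The third comparison set mural against Pdgfra+ cells within each library. *Tgfb1* was higher in mural cells by 7.44 (6.57 to 8.4) in the pubertal library and 3.73 (3.13 to 4.4) in the adult one, and *Tgfb3* by 7.51 (6.97 to 8.08) and 3.60 (3.18 to 4.05). *Tgfbr2* was lower in mural cells, at 0.186 (0.170 to 0.204) and 0.216 (0.192 to 0.242) of its Pdgfra+ level, as were *Tgfbr3* at 0.292 and 0.364, *Tgfbr1* at 0.6 and 0.412, *Ltbp3* at 0.377 and 0.520, and *Ltbp4* at 0.155 and 0.153. So 2 of the 9 genes with 10 CPM or more in both libraries were higher and 5 lower by 1.5-fold in both, where 23.4% and 19.8% of 8909 genes were. *Tgfb2* (1.67 and 1.26) and *Ltbp1* (0.414 and 0.698) passed it at puberty only. With TMM *Ltbp1* was lower by 1.5-fold too, where 16% of genes were higher and 27.5% lower. The median of the 9 was -1.27 at puberty and -0.94 in the adult on the log2 scale, beside 0.11 and 0.12 for all genes. The ratio of *Ltbp4* lies beside those of *Dcn*, 0.113 and 0.0465, and how much of its mural level came from other cells was not tested. The 7 calls held in all 10 alternative settings other than those of fold and minimum level.

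The fourth comparison set each gate against the Pdgfra+ cells outside it, and 11 pairs of gene and gate passed 1.5-fold in the same direction in both libraries. In the Pi16+Dpp4+ gate *Tgfbr2* was higher by 2.45 (2.41 to 2.50) in the pubertal and 2.25 (2.23 to 2.28) in the adult library, *Ltbp1* by 2.52 (2.48 to 2.57) and 1.84 (1.81 to 1.86), and *Tgfb2* by 1.64 (1.58 to 1.71) and 2.46 (2.37 to 2.55). With cells thinned to 3000 UMIs the pubertal *Tgfb2* ratio did not pass 1.5-fold, at 0.54 on the log2 scale. *Tgfb1* was lower there, at 0.431 (0.393 to 0.473) and 0.467 (0.433 to 0.503). That is 3 higher and 1 lower of 9, where 7.29% of 8283 genes were higher and 8.69% lower. *Ltbp4* stood at 0.346 at puberty and 0.979 in the adult, so over the whole gate it passed 1.5-fold in the pubertal library only. In cells of only 1 gate *Ltbp4* was lower by 1.5-fold in both libraries, at -1.81 and -0.59 on the log2 scale.

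In the *Thbs4* or *Bmp5* gate *Ltbp4* was higher by 2.88 (2.76 to 3.0) and 2.65 (2.59 to 2.71), and *Tgfb3* by 1.94 (1.77 to 2.14) and 1.58 (1.49 to 1.68). These were 2 of 9 genes, with none lower, where 3.09% of 8156 genes were higher and 2.37% lower. In the *Fabp4* gate *Tgfbr2* stood at 0.509 (0.497 to 0.522) and 0.576 (0.565 to 0.588), and *Tgfbr3* at 0.665 (0.651 to 0.680) and 0.663 (0.652 to 0.673), 2 of 9 lower and none higher, where 5.12% of 8187 genes were lower and 3.70% higher. The gate also had the largest share of cells with mural UMIs, 14.2% and 5.25%, and mural cells were low in both receptors. Without every Pdgfra+ cell that had a *Myh11* or *Rgs5* UMI, both stayed lower by 1.5-fold. That step leaves in cells whose mural RNA gave no counted UMI of these genes. The part of mural RNA in these ratios was not tested. In cells of only 1 gate *Tgfbr3* no longer passed it in the adult, at -0.56 on the log2 scale.

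In *Crabp1* cells *Tgfb1* was higher by 2.45 (1.93 to 3.06) and 1.68 (1.54 to 1.83), *Tgfb2* stood at 0.543 (0.466 to 0.630) and 0.319 (0.294 to 0.346), and *Ltbp4* at 0.602 (0.523 to 0.690) and 0.336 (0.319 to 0.353). In cells of only 1 gate the *Tgfb2* ratio did not pass 1.5-fold at puberty, at -0.40 on the log2 scale. The gate had 1 gene higher and 2 lower of 9, where 9.15% of 8448 genes were higher and 8.93% lower. *Tgfbr1* was higher by 1.79 (1.69 to 1.9) at puberty but by 1.38 (1.35 to 1.41) in the adult. In the *Gdf10* or *Fmo2* gate no gene of 8 passed 1.5-fold in both libraries, where 1.83% of 8041 genes were higher and 1.84% lower. Among cells that passed that gate alone, *Ltbp4* was higher and *Tgfbr2* and *Ltbp1* were lower by 1.5-fold in both libraries.

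**Figure D4:**
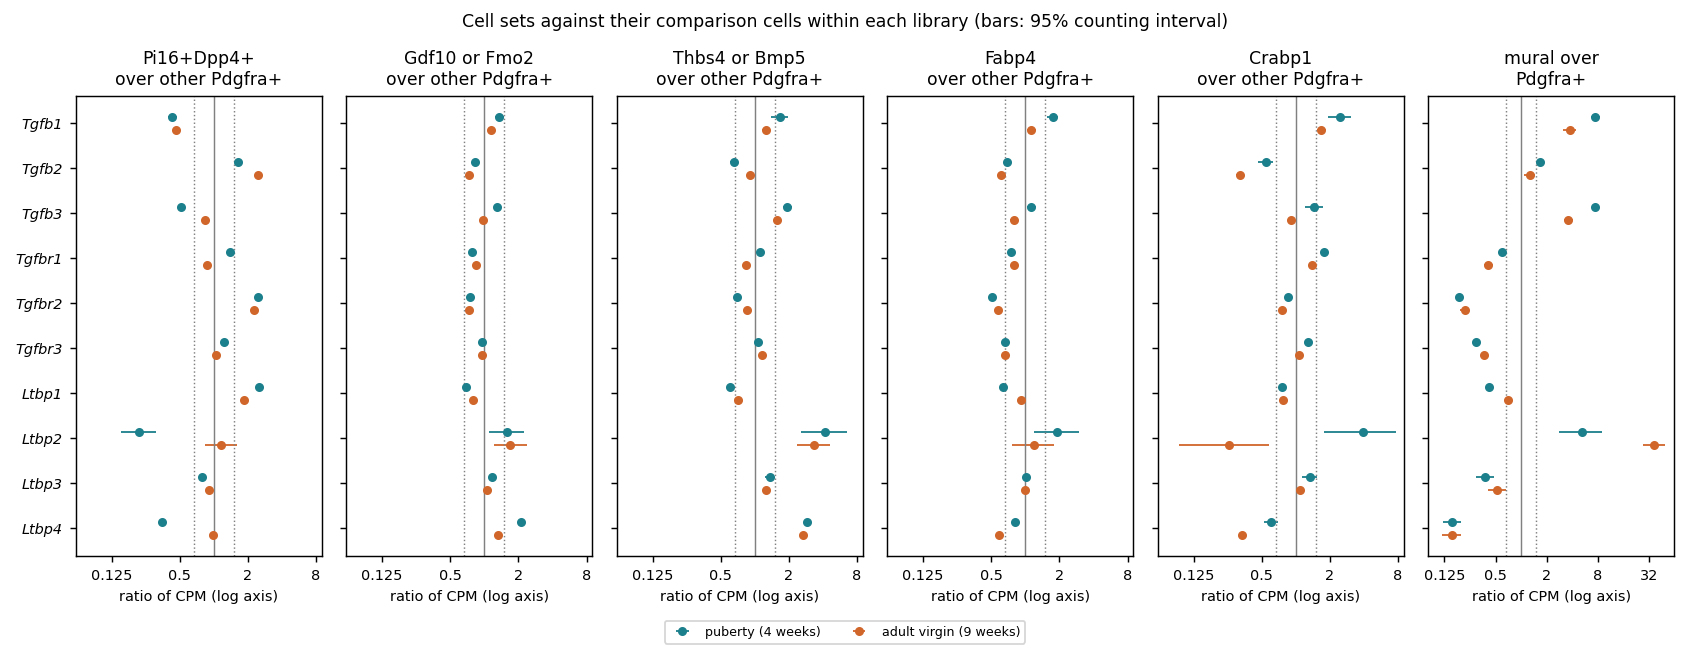
Ratio of CPM (horizontal log axes, 95% counting intervals) of each gate over the Pdgfra+ cells outside it, and of mural over Pdgfra+ cells, for each gene in the pubertal and the adult library. Dotted lines mark 1.5-fold either way. *Tgfbr2* and *Ltbp1* lie to the right in the Pi16+Dpp4+ panel, *Ltbp4* in the *Thbs4* or *Bmp5* panel, and *Tgfb1* and *Tgfb3* in the mural panel, at both stages.

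Shares of cells with a UMI were compared with every cell thinned to 3000 UMIs, which left out 336 pubertal and 426 adult Pdgfra+ cells and 56 and 83 mural cells. In Pdgfra+ cells *Tgfbr3* had a UMI in 71.5% of cells at puberty and 79.1% in the adult (95.9% and 97.2% without thinning), *Tgfbr2* in 71.7% and 64.6% (94.6% and 89.9%), and *Ltbp1* in 63.7% and 52.4% (87.4% and 78.7%). *Tgfbr1* was found in 31.9% and 38.1%, *Ltbp4* in 19.0% and 25.7%, *Tgfb2* in 16.7% and 11.1%, *Ltbp3* in 9.49% and 12.2%, *Tgfb3* in 6.02% and 7.50% and *Tgfb1* in 2.45% and 3.77%. *Ltbp2* was found in 0.183% (0.127 to 0.256) and 0.156% (0.106 to 0.220). *Myh11*, a gene of the mural gate, had a UMI in 1.46% and 0.880% of these cells, and where those UMIs came from was not tested.

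In mural cells *Tgfb3* was found in 33.7% (30.3 to 37.3) and 18.2% (14.4 to 22.5), *Tgfb2* in 23.1% (20.1 to 26.3) and 15.8% (12.2 to 19.9), and *Tgfb1* in 14.3% (11.8 to 17.1) and 13.9% (10.6 to 17.8). *Tgfbr2* was found in 18.4% and 23.8%, *Tgfbr1* in 22.1% and 17.1%, *Tgfbr3* in 27.2% and 40.4% and *Ltbp1* in 38.8% and 38.0%. *Dcn*, a fibroblast gene, was found in 20.5% and 24.6%. Its part in the mural shares of the receptors was not tested. The ligands *Tgfb1*, *Tgfb2* and *Tgfb3* were each found in a larger share of mural than of Pdgfra+ cells at both stages.

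**Figure D5:**
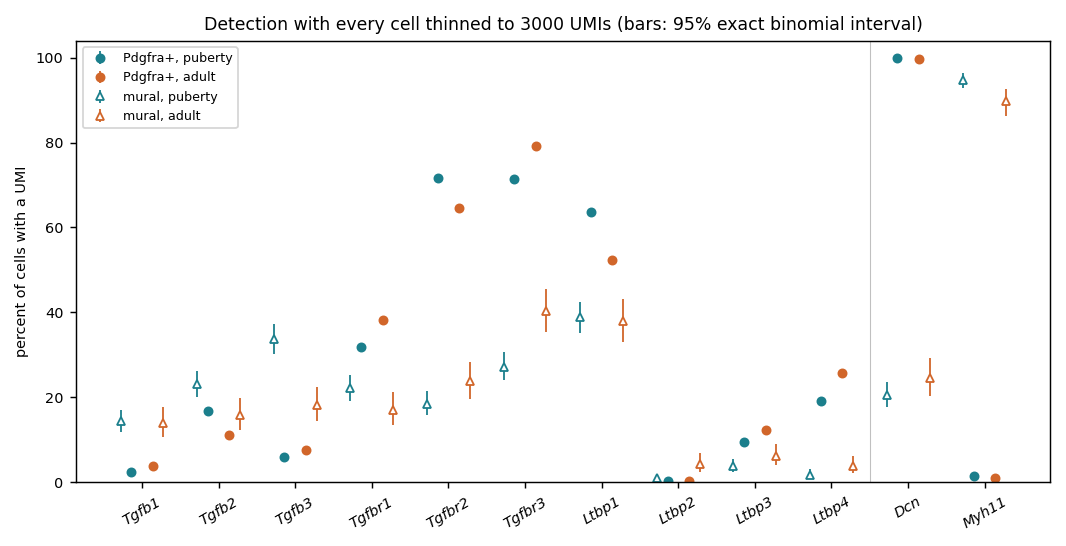
Percent of cells with at least 1 UMI of each gene (vertical axis) after thinning every cell to 3000 UMIs, in Pdgfra+ cells (filled circles) and mural cells (open triangles), with 95% exact binomial intervals. *Dcn*, a fibroblast gene, and *Myh11*, a gene of the mural gate, are on the right, with *Dcn* found in 20.5% and 24.6% of mural cells.

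Since a cell needs both kinase receptors to answer TGF-β, cells with *Tgfbr1* and *Tgfbr2* UMIs were counted at the same depth. They made up 23.7% of pubertal (23.1 to 24.3) and 24.4% of adult Pdgfra+ cells (23.8 to 25), and 4.4% (3.03 to 6.16) and 3.21% (1.67 to 5.54) of mural cells. The share was 27.5% and 28.8% in the Pi16+Dpp4+ gate, 29.2% (24.0 to 34.8) and 29.7% (28.0 to 31.5) in *Crabp1* cells, 18.6% and 21.6% in the *Thbs4* or *Bmp5* gate, 18.7% and 21.1% in the *Gdf10* or *Fmo2* gate, and lowest in the *Fabp4* gate, with 12.7% (11.2 to 14.4) and 17.1% (15.7 to 18.6). At least 1 ligand UMI was found in 23.8% and 21.1% of Pdgfra+ cells and in 55.4% (51.7 to 59.1) and 39.3% (34.3 to 44.5) of mural cells.

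The rest of the pathway was read from 4 lists. Of 18 genes that bind or release the latent complex, 15 were tested between stages in Pdgfra+ cells, and 2 were higher, 2 lower and 11 within 1.5-fold, with a median of -0.08 on the log2 scale beside 0.13 for all genes, of which 12.0% were higher and 5.09% lower. *Emilin1*, which binds the ligand precursor and restrains its processing, stood at 17.1 and 29.5 CPM (ratio 1.73), and *Lrrc32*, which encodes the cell-surface anchor GARP, at 7.76 and 12.7 CPM (1.64). *Fbn1*, the fibrillin to which the binding proteins attach, stood at 2633 and 1644 CPM (0.624), and *Itgb6*, a subunit of an integrin that releases the ligand, at 12.9 and 6.04 CPM (0.470). In mural cells none of 13 was higher and 7 were lower in the adult, with a median of -0.68 beside 0.15 for all genes, of which 17.0% were higher and 6.17% lower. Between mural and Pdgfra+ cells 3 of 14 were higher and 7 lower in both libraries, with a median of -1.70 beside 0.12 for all genes, of which 23.4% were higher and 19.8% lower. *Lrrc32* was higher in mural cells by 14.1 (12.8 to 15.6) and 5.12 (4.40 to 5.93), and *Fbn2* lower, at 0.0853 and 0.0505.

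Of 10 coreceptors and inhibitors, 9 were tested between stages in Pdgfra+ cells, and 2 were higher and none lower, with a median of 0.36 beside 0.13, against the same shares of all genes, 12.0% and 5.09%. *Cd109*, a coreceptor that dampens signaling, stood at 15.5 and 29.0 CPM (1.87) and *Nrp1* at 141 and 228 CPM (1.61). *Eng*, the coreceptor endoglin, stood at 39.6 and 57.9 CPM (1.46). *Htra3*, a protease that binds TGF-β family ligands, stood in mural cells at 0.0966 and 0.0485 of its Pdgfra+ level, beside 0.113 and 0.0465 for *Dcn* of the same list, and 2 of 10 were higher and 5 lower in mural cells, with a median of -1.06 beside 0.12, where 23.4% of all genes were higher and 19.8% lower. Between stages in mural cells 3 were higher and 4 lower, with a median of -0.29 beside 0.15, where 17.0% of all genes were higher and 6.17% lower.

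Of 13 genes of signal transduction, 1 was higher and 1 lower between stages in Pdgfra+ cells, with a median of 0.02 beside 0.13, against 12.0% and 5.09% of all genes. *Smad3*, which carries the signal, stood at 29.5 and 55.0 CPM (1.86, 1.81 to 1.92), and *Smad7*, an inhibitor that the signal induces, at 91.8 and 44.6 CPM (0.486, 0.475 to 0.497). *Tgfb1i1* stood at 29.4 and 40.1 CPM and was higher in mural cells by 4.57 and 3.44, the 1 higher gene of 13 there, beside 1 lower, *Smurf2*, and a median of -0.19 beside 0.12, against 23.4% and 19.8% of all genes. Between stages in mural cells 1 of 11 was higher and 1 lower, with a median of 0.12 beside 0.15, against 17.0% and 6.17% of all genes. Of 16 genes known to respond to TGF-β, 15 were tested, and 5 were higher and 5 lower, with a median of -0.17 beside 0.13 for all genes, of which 12.0% were higher and 5.09% lower. *Tnc* (22.1 and 80.8 CPM, ratio 3.65), *Cilp* (79.2 and 233 CPM, 2.94) and *Ccn2* (36 and 84.3 CPM, 2.34) were among the higher genes, as was *Snai2*, whereas *Col1a1*, *Col1a2*, *Col3a1*, *Acta2* and *Tagln* were lower. Within gates *Tnc* was lower in adult *Crabp1* cells (365 and 145 CPM) and *Thbs4* or *Bmp5* cells (141 and 109 CPM). It was higher in adult Pi16+Dpp4+ cells (6.21 and 30.8 CPM) and *Gdf10* or *Fmo2* cells (16.9 and 78.5 CPM). In *Fabp4* cells it was nearly level, at 36.6 and 38.6 CPM. *Cilp* was higher in every gate, with 872 and 1199 CPM in *Thbs4* or *Bmp5* cells. These ratios were not weighted to the pubertal mix of gates. *Acta2*, a contractile gene, was 275 and 416 times as high in mural as in Pdgfra+ cells. In Pdgfra+ cells it stood at 25.6 and 12.6 CPM, and among the gates it was highest in *Fabp4* cells, at 198 and 63 CPM. *Myh11* or *Rgs5* UMIs were found in 4.03% of pubertal and 2.55% of adult Pdgfra+ cells. The part of such cells in the lower *Acta2* and *Tagln* was not tested. Between mural and Pdgfra+ cells 3 of 15 were higher and 8 lower, with a median of -1.66 beside 0.12, against 23.4% and 19.8% of all genes. Between stages in mural cells 1 of 14 was higher and 6 lower, with a median of -0.45 beside 0.15, against 17.0% and 6.17% of all genes. *Col1a1* is in this list and, like *Dcn*, defines fibroblasts, at 0.111 and 0.0436 of its Pdgfra+ level in mural cells.

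The genes whose levels were most like those of a member were sought over the 10 sums of 5 gates in 2 libraries, by Pearson's r of log2(CPM + 5) among 7350 other genes with at least 20 CPM in any. The sums share cells and libraries, so this is a description. *Ltbp4* was most like *Deptor* (r = 0.954), *Angpt1* (0.949) and *Podn* (0.937). *Ltbp1* was most like *Tmeff1* (0.977), *Eef1b2* (0.967) and *Pkn2* (0.966), *Tgfbr2* like *Inpp1* (0.976), *Kif2a* (0.960) and Fzd10os (0.954), and *Tgfb2* like *Heg1* (0.970), *Ly6c1* (0.968) and *Rps20* (0.964). *Tgfb1* was most like *Ptms* (0.989), *Msra* (0.988) and *Ier5l* (0.987), *Tgfb3* like *Ramp1* (0.955), *Stard13* (0.954) and *Irs1* (0.946), and *Tgfbr1* like *Maea* (0.976), *Epb41l3* (0.974) and *Sesn3* (0.973). *Tgfbr3* was most like *Itgb5* (0.956), *Clstn1* (0.95) and *Cbx5* (0.945), and *Ltbp3* like *Gnao1* (0.973), *Sgcd* (0.973) and *Clmp* (0.968). *Ltbp2*, with at most 2.12 CPM in any of the sums, is not described in this way.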

How the data were processed

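The labels give a 10x Genomics GEM-X 3′ kit, Cell Ranger 8.0.1 and the mm10 build. In the study's methods the kit, the software release and the pubertal age differ from these, and the labels were followed. The authors deposited raw UMI counts per gene and cell, with no normalization. Of the 33696 listed gene identifiers, 32012 are in GENCODE vM21, so the annotation behind the counts may be another release. The 10 members are all in it, and their coordinates are from it (GRCm38).

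The members, gates and gene lists were chosen with earlier results of these data known. The genes named from the 4 pathway lists were those with the largest stage ratios (3 a list) and the largest mural over Pdgfra+ ratio (1 a list), besides genes named to complete a count. Counts were summed over the cells of a set and divided by the set's total to CPM. Sums have exact Poisson, shares exact Clopper-Pearson and ratios conditional binomial 95% intervals, which cover counting error only. A member had to reach 10 CPM in either sum to be counted at 1.5-fold, and comparisons within libraries had to pass in both. Ratios, calls and intervals were tested on simulated data. Predicted doublets were kept. An alternative removed the highest scores of Scrublet (scanpy 1.11.5) at 0.4% per 1000 barcodes, 8.68% and 9.27% of barcodes, where its own threshold marked 2.17% and 3.17%. TMM factors came from edgeR 4.0.16.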

Additional observations from a re-analysis of the deposited data

Results flagged for a closer look

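For 2 genes the adult over puberty ratio lay on opposite sides of 1 in Pdgfra+ and mural cells, with counting intervals that did not include 1. With 1 library per stage the difference between the cell types was not tested. *Tgfb3* had a ratio of 1.2 in Pdgfra+ cells (1.16 to 1.24) and 0.575 in mural cells (0.5 to 0.659). Its Pdgfra+ ratio was 1.07 at the pubertal mix of gates, and within gates it was also below 1 in *Crabp1* cells (0.771, 0.641 to 0.933) and in *Fabp4* cells (0.879, 0.791 to 0.977). *Ltbp1* had a ratio of 0.686 in Pdgfra+ cells (0.680 to 0.692) and 1.16 in mural cells (1.05 to 1.27). The mural ratio of *Ltbp1* was 1.45 (1.24 to 1.69) in cells with both *Myh11* and *Rgs5* and 0.926 (0.803 to 1.07) in cells with *Myh11* alone, and on the log2 scale it went from 0.21 to 0.00 with TMM. The mural ratio of *Tgfb3* was 0.556 and 0.609 in the same cells and lay between -1.10 and -0.68 on the log2 scale in all settings run.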

How the results depend on the processing

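No paired analysis was possible with 1 library per stage, and the labels pair no animals across the stages. Of 1680 values of single genes recomputed under 12 settings, 1140 stayed inside their counting interval and 540 left it. By number, more left it with thinning (127 of 190) and TMM (100 of 190) than with any other setting. The settings did not cover the same number of values. A larger part left it in cells of only 1 gate (79 of 100) and at the pubertal mix of gates (9 of 10). Among values past 1.5-fold, only those of *Ltbp2*, a gene near the limit of counting, changed sign. Its adult log2 ratio over the other Pdgfra+ cells went from 0.76 to -0.74 for the *Gdf10* or *Fmo2* gate in cells of only 1 gate. For *Crabp1* cells it went from -1.95 to 0.02 with thinning. The count of genes past 1.5-fold between stages in Pdgfra+ cells, 2, became 0 with cells thinned to 3000 UMIs, 0 at the pubertal mix of gates, 1 with a minimum of 50 CPM, 0 at 2-fold and 7 at a more lenient fold. In mural cells the count of 6 became 3 with a minimum of 50 CPM, 1 at 2-fold and 3 without the cells that carried epithelial UMIs, a setting added, like that without Pdgfra+ cells with mural UMIs, after the data were seen. The 11 pairs of gene and gate became 18 in cells of only 1 gate (with 2 of the 11 lost), 21 at the more lenient fold and 3 at 2-fold. The shares of all genes under these settings are not given here, so these changes in count cannot be set against a background. At 1500 UMIs per cell the share of Pdgfra+ cells with both receptors was 10.2% at both stages, and that of mural cells 1.06% at puberty and 2.04% in the adult. The cause of these changes was not tested. For levels and ratios the gates were drawn again on the thinned counts, so the cells of a set changed with thinning. For shares of cells the first gates were kept. The other counts of genes and pairs stayed within 1.5 times their value. Between mural and Pdgfra+ cells the count ran from 5 to 9 over the settings, against 7. Depth limits *Ltbp2* and the adult mural values, where 457 cells gave 59 to 702 UMIs per gene. Leaving out a library would leave no comparison.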

Other observations

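Cells with UMIs of both kinase receptors and of a ligand were counted with every cell thinned to 3000 UMIs. They made up 5.82% of pubertal (5.49 to 6.17) and 5.49% of adult Pdgfra+ cells (5.18 to 5.81). The share was 6.82% and 7.75% in the Pi16+Dpp4+ gate and 2.94% and 3.14% in the *Fabp4* gate. In mural cells it was 2.34% (17 of 727) at puberty and 0.267% (1 of 374) in the adult.

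Pdgfra+ cells that passed no gate numbered 706 at puberty and 2507 in the adult, with medians of 9977 and 7490 UMIs. Their *Tgfbr1* stood at 183 and 294 CPM (ratio 1.60, 1.51 to 1.71) and their *Tgfb2* at 61.1 and 29.5 CPM (0.483, 0.425 to 0.550). *Itgb8*, a subunit of an integrin that releases TGF-β1 and TGF-β3, was under 10 CPM over all Pdgfra+ cells, at 1.31 and 6.38 CPM, and so was *Cdkn2b*, at 1.2 and 7.03 CPM. In *Crabp1* cells *Itgb8* stood at 17 and 16.8 CPM and *Cdkn2b* at 10.1 and 14.7 CPM. Both were chosen after their values were seen.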
